A study of Mus musculus with 9 samples.

Results

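The genes described here are 8 markers of dendritic cells and B cells, measured in mouse liver: Cd83, Clec10a, Itgax and Flt3 for dendritic cells, and Cd22, Cd79a, Cd79b and Ms4a1 for B cells. They were chosen by name, as every gene probe of the array whose symbol, or an older symbol of the same gene, is on that list. The 8 genes had 11 of the 41174 gene probes on the array, and 7 of them were among the 16792 genes bright enough to test. Whole-tissue RNA of liver lobes was hybridised to 9 single-colour Agilent mouse arrays, 3 for each of 3 groups. All samples came from male C57BL/6 mice aged 3 months. The untreated group was wild-type liver, the AAV-GFP group was liver of mice treated with an adeno-associated virus carrying green fluorescent protein, and the AAV-hGRβ group was liver of mice that received such a virus with human glucocorticoid receptor β. As far as the labels say, AAV-hGRβ therefore differs from AAV-GFP in the insert, and from untreated liver in both virus and insert. The dose, the promoter of the vectors and the time after injection are not given in the sources used here. The labels do not say that replicates are separate animals, so p-values measure the spread between these samples, which may be technical.

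Dendritic cells take up antigen, mature, and present it to T cells, and a small number of them lives along the portal tracts and sinusoids of the liver. B cells recognise antigen through a surface immunoglobulin whose signal is carried by the CD79A and CD79B chains and damped by inhibitory receptors such as CD22. Glucocorticoids act on both kinds of cell, and the β isoform of the human receptor is known as one that does not bind hormone in the usual way and can oppose the α isoform. The dendritic cell markers are not confined to dendritic cells: Itgax and Clec10a are also found in macrophages, Cd83 in activated B cells and Flt3 in blood progenitors. Cd79a, Cd79b and Ms4a1 are standard markers of the B lineage.

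Each level below is log2 of the spot's intensity relative to the 75th percentile of its own array, so 0 is the brightness of that percentile, and levels of different probes are not compared. A spot is called well above background where the scanner software marked it so. Between 54% and 82% of gene spots carried this mark on an array, with the lowest share in untreated replicate 3 and the highest in AAV-hGRβ replicate 1. The 9 arrays were scanned on 2 days, the second of which held untreated replicate 2, AAV-GFP replicate 3 and AAV-hGRβ replicate 1. As a check of the tissue, 7 of 8 hepatocyte markers on the list had a probe and a test, and albumin (Alb) stood at a mean level of 10.11 in untreated liver, 10.36 with AAV-GFP and 10.21 with AAV-hGRβ. None of these 7 passed the test in either AAV-hGRβ comparison. In whole tissue, more or fewer cells of a type and more or less RNA per cell cannot be told apart.

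Second probes and a dim probe decide how the results below can be read, so their sequences are given as the array lists them, all in lower case, on build mm7 of the mouse genome. The Itgax pair is shown because its probes differ in the comparison with AAV-GFP, the Cd22 pair because its second probe was dim, and Cd79a because its single probe was too dim to test.
Itgax, clone probe, chr7:124230396-124230455, plus strand: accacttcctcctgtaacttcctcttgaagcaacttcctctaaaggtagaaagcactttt
Itgax, RefSeq probe, chr7:124247096-124247155, plus strand: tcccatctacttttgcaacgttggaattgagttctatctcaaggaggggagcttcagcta
Cd22, first probe, chr7:27806351-27806410, minus strand: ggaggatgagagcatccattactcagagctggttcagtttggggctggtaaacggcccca
Cd22, second probe, chr7:27815904-27817228, minus strand: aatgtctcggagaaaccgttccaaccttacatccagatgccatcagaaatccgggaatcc
Cd79a, chr7:21688822-21689079, plus strand: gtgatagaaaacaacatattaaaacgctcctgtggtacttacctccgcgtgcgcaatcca
Each probe is 60 bases long. The second Cd22 probe covers 1325 bases of genome and the Cd79a probe 258 bases, which is longer than the probe, so both are placed across a gap in the genome. The GC content of the 5 probes lay between 41.7% (Itgax, clone probe) and 55% (Cd22, first probe), against a median of 40% over all probes of the array. The exon or untranslated region that a probe lies in was not analysed here.

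Of the 7 tested markers, 6 had the highest mean with AAV-hGRβ, the next with AAV-GFP and the lowest in untreated liver, an order that 28.9% of all tested genes shared. Flt3, the exception, was lowest with AAV-GFP. Against AAV-GFP, the AAV-hGRβ mean was higher for all 7, as for 53.3% of all tested genes, by a median of 1.11 on the log2 scale beside 0.03 over all of them. None of the 7 passed the test, where 0.917% of all genes passed. Against untreated liver it was higher for all 7, as for 56.8% of all genes, by a median of 1.25 beside 0.10. Here 3 passed, Cd83, Clec10a and Cd22, beside 3.38% of all genes. Between AAV-GFP and untreated liver 6 of 7 lay above 0, as did 53.3% of all genes, with a median of 0.39 beside 0.04, and none passed. That median rested on single arrays: it was 0.05 without AAV-GFP replicate 3, 0.07 without untreated replicate 4, and 0.70 without AAV-GFP replicate 1 or without untreated replicate 2.

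**Figure D1:**
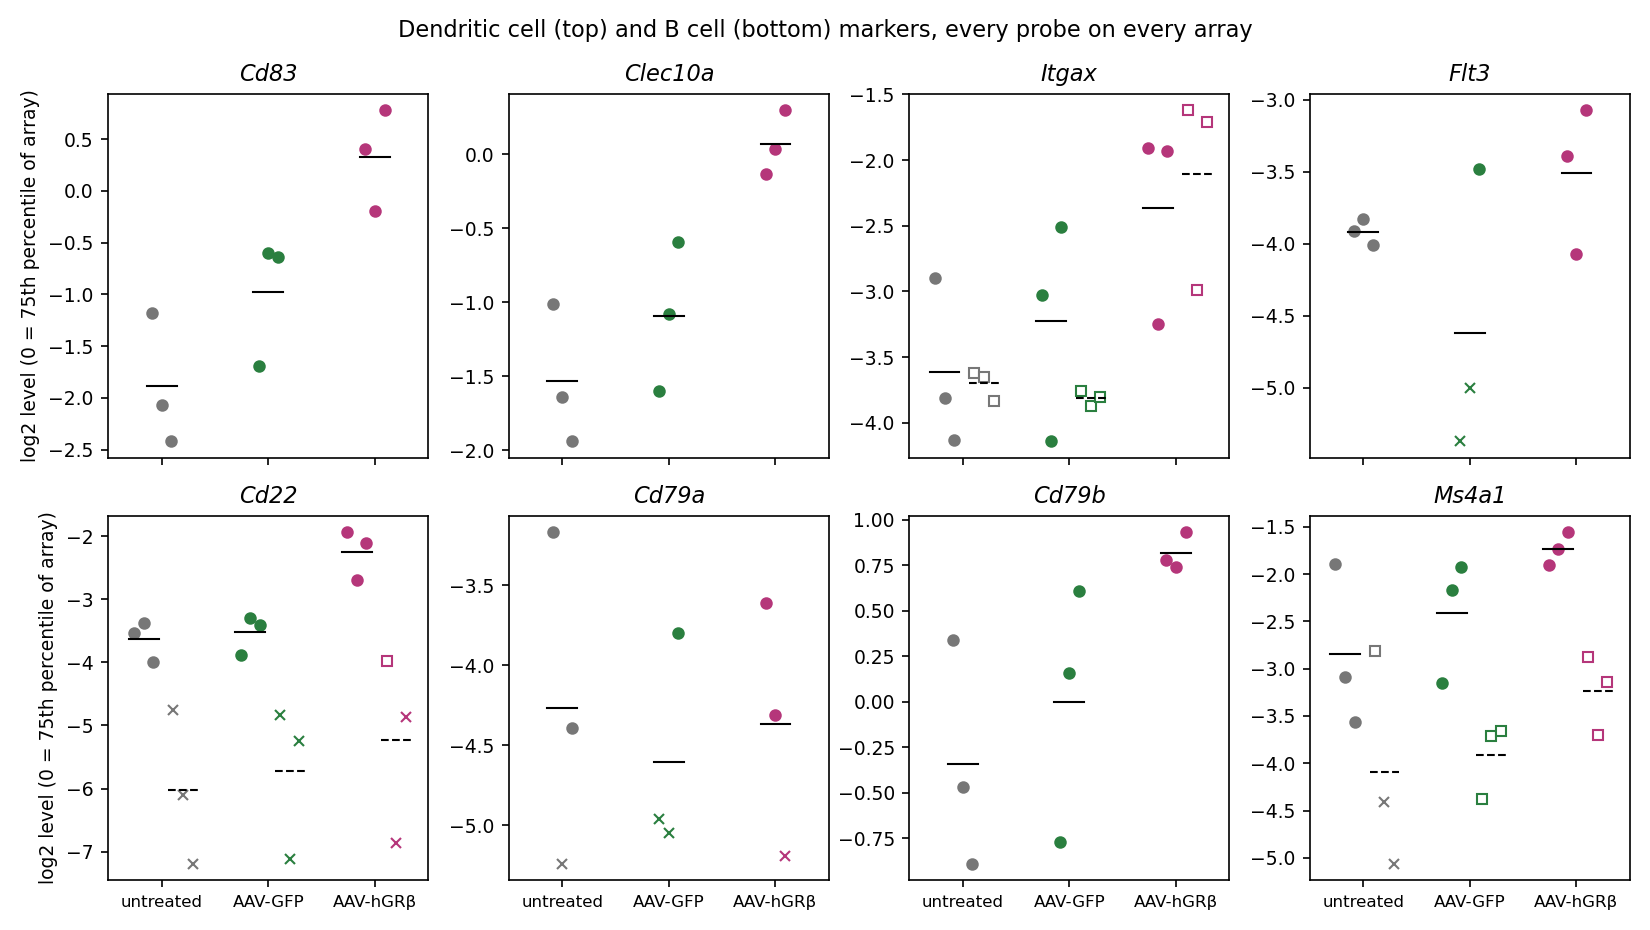
Level of every probe of the 8 genes on each of the 9 arrays (y axis: log2 intensity relative to the array's 75th percentile), by group. Filled circles are the probe that stands for the gene (for Cd79a its only probe, which was not tested), open squares a second probe, crosses spots not well above background, and bars the mean of 3 arrays. The Cd83, Clec10a, Cd22 and Cd79b circles of AAV-hGRβ lie above those of the other groups.

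Cd83, an immunoglobulin-family protein shown by mature dendritic cells, spanned the widest range of the 7 tested genes, 3.20 on the log2 scale from the lowest to the highest array. Its levels were -1.18, -2.07 and -2.42 in untreated replicates 2, 3 and 4. They were -1.69, -0.60 and -0.64 in AAV-GFP replicates 1 to 3. They were 0.40, -0.20 and 0.78 in AAV-hGRβ replicates 1 to 3. All 3 AAV-hGRβ arrays lay above every array of the other groups, while AAV-GFP and untreated overlapped. Cd83 rose 4.65-fold from untreated to AAV-hGRβ liver, a log2 difference of 2.22 ± 0.42 (SE, n = 3 per group, adjusted p = 0.0327 in limma). Against AAV-GFP the difference was 1.31 ± 0.42, with a 95% interval of 0.36 to 2.26 and an adjusted p of 0.249 in limma. AAV-GFP lay 0.91 above untreated liver, with an interval of -0.04 to 1.86 and an adjusted p of 0.485 in limma.

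Clec10a, a galactose-binding lectin of dendritic cells and macrophages that the array lists under its older name Mgl1, followed a similar course at a smaller size. Untreated replicates 2, 3 and 4 stood at -1.01, -1.64 and -1.94. AAV-GFP replicates 1 to 3 stood at -1.60, -1.08 and -0.59. AAV-hGRβ replicates 1 to 3 stood at -0.13, 0.04 and 0.30. Here too the AAV-hGRβ arrays did not overlap with the rest. Clec10a rose 3.03-fold over untreated liver (log2 1.60 ± 0.31, SE, n = 3 per group, adjusted p = 0.0360 in limma). The difference from AAV-GFP was 1.16 ± 0.31, with a 95% interval of 0.45 to 1.87 (adjusted p = 0.173 in limma). AAV-GFP and untreated liver differed by 0.44, with an interval of -0.27 to 1.15.

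Itgax encodes CD11c, the integrin chain by which dendritic cells are commonly sorted, and its result depended on the probe. The brighter probe, which stood for the gene and is annotated to a cDNA clone, gave -2.90, -3.81 and -4.13 in untreated replicates 2, 3 and 4. It gave -3.03, -4.14 and -2.51 in AAV-GFP replicates 1 to 3. It gave -1.91, -3.25 and -1.93 in AAV-hGRβ replicates 1 to 3. All groups overlapped at this probe, and AAV-hGRβ replicate 2 lay within the range of each of the other groups. The difference was 0.86 ± 0.52 from AAV-GFP (95% interval -0.32 to 2.05, adjusted p = 0.595 in limma) and 1.25 ± 0.52 from untreated liver (0.06 to 2.43, adjusted p = 0.179 in limma).

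At the RefSeq probe of Itgax, the untreated levels were -3.62, -3.65 and -3.83 and the AAV-GFP levels -3.76, -3.87 and -3.80. These 6 arrays differed by little at that probe. The AAV-hGRβ levels were -1.62, -2.99 and -1.71, all above the other 6 arrays, with replicate 2 again the lowest of its group. With this probe in place of the clone probe, a choice made after its values were seen, the difference from untreated liver was 1.59 (adjusted p = 0.0407 in limma) and that from AAV-GFP 1.70 (adjusted p = 0.0579 in limma). Both probes were well above background on all 9 arrays, and both gave a positive mean difference for AAV-hGRβ. Between AAV-GFP and untreated liver the clone probe gave 0.39 and the RefSeq probe -0.11.

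Flt3, the receptor for the cytokine on which dendritic cells and their precursors depend, was measured near the limit of the arrays. It stood at -3.91, -3.83 and -4.01 in untreated replicates 2, 3 and 4. In AAV-GFP replicates 1 to 3 it stood at -5.37, -5.00 and -3.48, of which only the last was well above background. AAV-hGRβ replicates 1 to 3 stood at -3.39, -4.07 and -3.07. No pair of groups separated. AAV-hGRβ lay 1.11 ± 0.46 above AAV-GFP (adjusted p = 0.385 in limma) and 0.41 ± 0.46 above untreated liver (adjusted p = 0.572 in limma). AAV-GFP lay at -0.70 relative to untreated liver, with a 95% interval of -1.74 to 0.34. The AAV-GFP mean rests on 2 spots that were not well above background.

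Among the B cell genes, Cd22, the sialic acid-binding receptor that restrains signalling from the B cell receptor, came closest to the threshold in the comparison with AAV-GFP. Its first probe stood at -3.53, -3.38 and -3.99 in untreated replicates 2, 3 and 4. It stood at -3.88, -3.29 and -3.40 in AAV-GFP replicates 1 to 3, and at -1.94, -2.69 and -2.10 in AAV-hGRβ replicates 1 to 3. The AAV-hGRβ arrays lay above all 6 others, and the AAV-GFP and untreated arrays covered nearly the same range. The difference from AAV-GFP was 1.28 ± 0.27 (SE, n = 3 per group, 95% interval 0.67 to 1.88, adjusted p = 0.0782 in limma). Cd22 rose 2.61-fold over untreated liver (log2 1.39 ± 0.27, adjusted p = 0.0354 in limma). AAV-GFP and untreated liver differed by 0.11, with an interval of -0.50 to 0.72. The second Cd22 probe was well above background on 1 array only, AAV-hGRβ replicate 1 at a level of -3.98, and was not tested. Its other 8 levels lay between -7.19 and -4.76.

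Cd79b, a signalling chain of the B cell receptor, was well above background on all 9 arrays. Its levels were 0.34, -0.47 and -0.89 in untreated replicates 2, 3 and 4, and -0.77, 0.16 and 0.61 in AAV-GFP replicates 1 to 3. AAV-hGRβ replicates 1 to 3 gave 0.78, 0.74 and 0.93, with a standard deviation of 0.10 against 0.70 for AAV-GFP and 0.62 for untreated liver. The AAV-hGRβ arrays again lay above all others, with AAV-GFP replicate 3 the nearest of them. The difference from AAV-GFP was 0.82 ± 0.39 (95% interval -0.07 to 1.71, adjusted p = 0.471 in limma). The difference from untreated liver was 1.16 ± 0.39 (0.27 to 2.05, adjusted p = 0.123 in limma).

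Cd79a, the partner chain of Cd79b in the same receptor complex, could not be tested. Its probe was well above background on 2 untreated arrays, 1 AAV-GFP array and 2 AAV-hGRβ arrays, and so on all arrays of no group. Its levels were -3.17, -5.24 and -4.39 in untreated replicates 2, 3 and 4, then -4.96, -5.05 and -3.80 with AAV-GFP and -3.61, -4.31 and -5.19 with AAV-hGRβ. The groups overlapped, with means of -4.27, -4.60 and -4.37, and a difference was not detectable at this signal.

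Ms4a1 encodes CD20, a surface protein of B cells up to the plasma cell stage. Its brighter probe gave -1.89, -3.09 and -3.56 in untreated replicates 2, 3 and 4. It gave -3.15, -2.17 and -1.93 in AAV-GFP replicates 1 to 3 and -1.90, -1.73 and -1.56 in AAV-hGRβ replicates 1 to 3. The lowest AAV-hGRβ array lay barely above the highest AAV-GFP array, and untreated replicate 2 lay inside the AAV-hGRβ range. The difference was 0.68 ± 0.44 from AAV-GFP (95% interval -0.32 to 1.69, adjusted p = 0.631 in limma) and 1.11 ± 0.44 from untreated liver (0.11 to 2.12, adjusted p = 0.164 in limma). The second Ms4a1 probe, dimmer and well above background on 7 arrays, gave 0.68 and 0.85 for these differences.

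Read against all genes, the count of markers past the test was 0 of 7 for AAV-hGRβ against AAV-GFP, where 0.917% of tested genes passed in either direction and 0.84% as higher. Groups that did not overlap, with AAV-hGRβ higher, were found for 5 of 7 markers (Cd83, Clec10a, Cd22, Cd79b and Ms4a1) and for 9.59% of all tested genes. At an unadjusted p under 0.05, 4 of 7 were higher (Cd83, Clec10a, Flt3 and Cd22), beside 8.41% of all genes. For AAV-hGRβ against untreated liver, 3 of 7 passed, beside 3.38% of all genes in either direction and 2.59% as higher. Groups did not overlap for 4 of 7 (Cd83, Clec10a, Cd22 and Cd79b), beside 14.8%. At an unadjusted p under 0.05, 6 of 7 were higher, all but Flt3, beside 14.7% of all genes. For AAV-GFP against untreated liver, 0 of 7 passed in limma, beside 0% of all genes, and at an unadjusted p under 0.05 there were 0 of 7 higher, beside 4.67%. No marker separated these groups with AAV-GFP higher, beside 5.76% of all genes. The 2 comparisons with untreated liver share the untreated arrays, and the 2 with AAV-GFP share the AAV-GFP arrays.

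**Figure D2:**
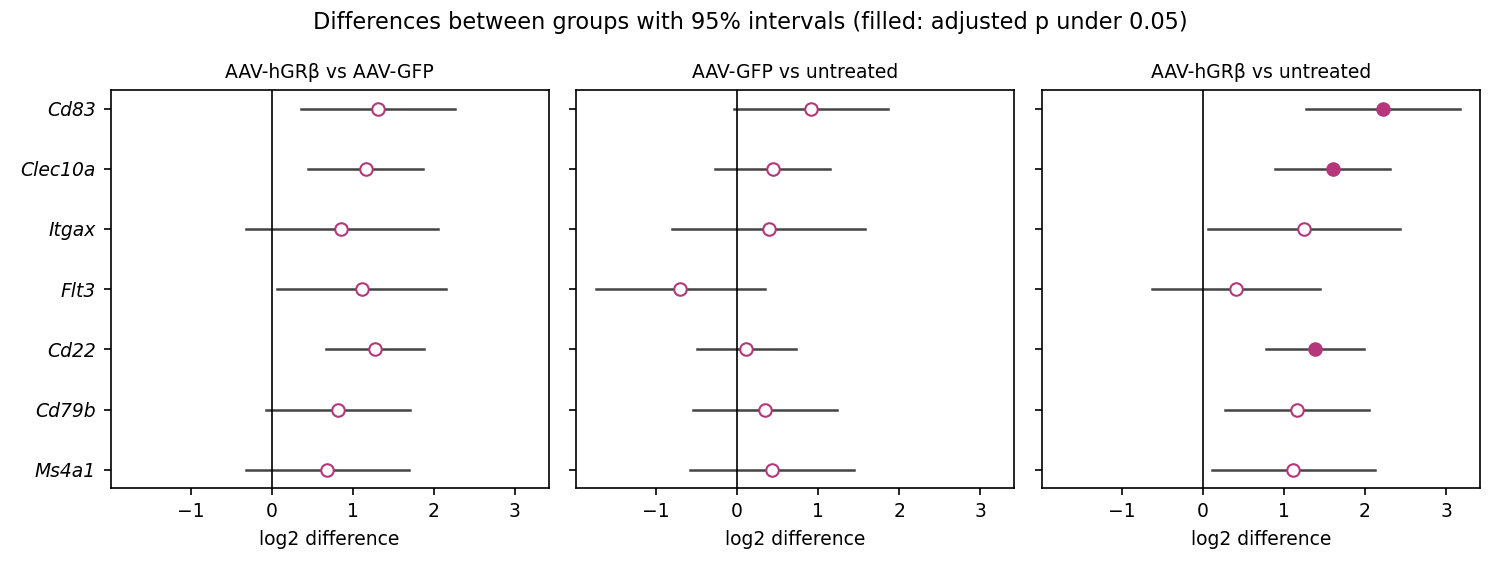
Log2 difference of the 7 tested markers (x axis) in each of the 3 comparisons, with 95% intervals from the fit over all 9 arrays. Filled points passed an adjusted p of 0.05: Cd83, Clec10a and Cd22 in AAV-hGRβ against untreated liver, and none in the other panels.

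The 3 calls against untreated liver rested on few arrays. Without AAV-hGRβ replicate 1, AAV-hGRβ replicate 3, untreated replicate 3 or untreated replicate 4, each left out alone, 0 of 7 markers passed. Without untreated replicate 2, 5 of 7 passed, Cd79b (adjusted p = 0.0432 in limma) and Ms4a1 (adjusted p = 0.0364 in limma) being added. Without AAV-hGRβ replicate 2, Cd83 and Cd22 passed and Clec10a did not (adjusted p = 0.0784 in limma). The sizes moved less than the calls: over all leave-outs of 1 array, Cd83 lay between 1.95 and 2.57 above untreated liver, Clec10a between 1.39 and 1.86, and Cd22 between 1.21 and 1.61. Against AAV-GFP, where no marker passed with any 1 array of these groups left out, the sizes moved more. Itgax gave 0.41 without AAV-GFP replicate 2 and 1.31 without AAV-hGRβ replicate 2. Flt3 gave 0.74 without AAV-GFP replicate 1 and 1.68 without AAV-GFP replicate 3, and without AAV-GFP replicate 1 Cd79b gave 0.44 and Ms4a1 0.32.

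The background correction mattered most for the dim markers. With normexp correction on the raw mean and local background signals, in place of the scanner software's own subtraction, AAV-hGRβ against AAV-GFP gave -0.27 for Cd22, -0.47 for Itgax, -0.65 for Flt3 and -0.09 for Ms4a1. Against untreated liver the same correction gave -0.03 for Cd22, -0.18 for Itgax and -0.56 for Flt3. Cd83, Clec10a and Cd79b stayed above 0 in both comparisons, at 0.80, 0.70 and 0.89 against AAV-GFP, but none passed. When the local backgrounds above the array's 99th percentile were replaced by the array's median before this correction, all 7 lay above 0 in both comparisons and 3 passed against untreated liver. The sizes were smaller, with medians of 0.62 against AAV-GFP and 0.77 against untreated liver, beside 1.11 and 1.25 as reported. Both normexp runs used an offset of 50.

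The same markers could be read within each scan day, in which 2 arrays of each group were set against each other on the first day and 1 on the second. Cd22 differed between AAV-hGRβ and AAV-GFP by 1.19 on the first day and 1.46 on the second. Cd83 differed by 1.44 and 1.04, and Clec10a by 1.51 and 0.46. Itgax differed by 0.99 and 0.60. Against AAV-GFP, every tested marker had the same direction on both days. Cd79b differed by 1.14 and 0.17, Flt3 by 1.62 and 0.10, and Ms4a1 by 1.01 and 0.03, so their difference from AAV-GFP lay almost wholly on the first day's arrays. Against untreated liver, Ms4a1 gave 1.68 on the first day and -0.02 on the second, and Cd79b 1.52 and 0.44. Cd83 gave 2.54 and 1.58, Clec10a 1.96 and 0.88, and Cd22 1.29 and 1.59. On the first day the 2 arrays of each group lay on a slide of their own, so group and slide cannot be told apart there. The second day's AAV-GFP and AAV-hGRβ arrays shared a slide, the only one to hold more than 1 group, and over that pair of arrays the median difference of the 7 markers was 0.46, beside 1.11 over all arrays. With slide as a random block the medians were 0.77 against AAV-GFP and 1.11 against untreated liver. Under this block none of the 3 calls against untreated liver held, for Cd22 (adjusted p = 0.214 in limma), Cd83 (adjusted p = 0.226 in limma) or Clec10a (adjusted p = 0.236 in limma). With scan day as a block, the same number of markers passed as without it, 3 against untreated liver and 0 against AAV-GFP.

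**Figure D3:**
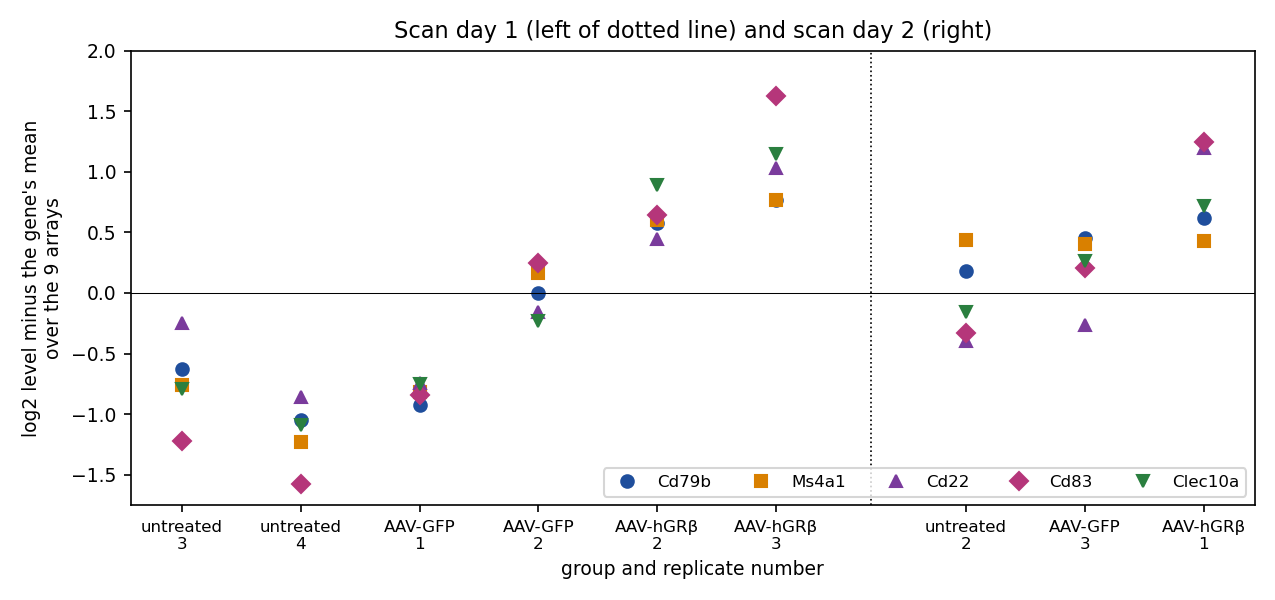
Level of 5 markers on each array minus that gene's mean over the 9 arrays (y axis, log2), with arrays of the first scan day left of the dotted line and those of the second to its right. On the second day Ms4a1 lies at nearly the same height on the untreated, AAV-GFP and AAV-hGRβ arrays. Cd22, Cd83 and Clec10a stand highest on the AAV-hGRβ array, as does Cd79b by a smaller step.

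Certain arrays stood low or high for several markers at once. Untreated replicate 4 was the lowest of its group for all 7 tested genes, and AAV-GFP replicate 1 for 6 of 7. AAV-hGRβ replicate 2 was the lowest of its group for 5, while AAV-hGRβ replicate 3 was the highest for 5. Untreated replicate 2 and AAV-GFP replicate 3, both scanned on the second day, were each the highest of their group for 5 of 7.

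Among the 7, Cd79b and Ms4a1 had the most similar profiles: after each gene was centred on its own mean, the root-mean-square difference over the 9 arrays was 0.15 on the log2 scale. Of all tested genes with a symbol, Cd79b was the one nearest to Ms4a1. Cd79b itself lay nearest to Hcst at 0.12, the gene of an adaptor protein of activating receptors on lymphocytes, and then to Rgs10 at 0.15. Hcst was also the second nearest to Ms4a1, at 0.17. Cd83 lay nearest to Cd52 at 0.20, which encodes a small surface protein of many leukocytes, and to Cd200r1 at 0.21, an inhibitory receptor of myeloid cells. Cd22 lay nearest to Ppfia4 at 0.12 and to Il10ra at 0.17, the interleukin-10 receptor chain. Clec10a lay nearest to Afp and Tlr6, both at 0.10, Itgax to Dzip1 at 0.12 and Rtbdn at 0.13, and Flt3 to Tph1 at 0.22 and Tdh at 0.24. Cd83 and Flt3 were the least alike of the pairs, at 0.94. All 9 arrays share their groups and scan days, so a small distance describes these arrays only.

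The other genes of these cells were read from lists. A probe was tested where every array of some group was well above background, and 940 of the 16792 tested genes entered through AAV-hGRβ alone. Of these 940, 97.7% lay above 0 against AAV-GFP, beside 50.7% of the other tested genes, so the filter favoured that direction. In the text, list counts above 0 and list medians are given without such genes. Counts past the test and summed levels include them. None of the 7 markers entered through AAV-hGRβ alone. With slide as a random block, 2 of the 5 calls of list genes against AAV-GFP held, those of Ly6d (adjusted p = 0.0470 in limma) and Cd8a (adjusted p = 0.0344 in limma), and 0 of the 16 against untreated liver. Of these 2 genes, Cd8a had entered through AAV-hGRβ alone.

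Of 15 further B cell genes, 12 were tested, and Cr2, Fcrla and Tnfrsf13c entered through AAV-hGRβ alone. The other 9 all lay above 0 for AAV-hGRβ against AAV-GFP with a median of 0.64, and none of the 12 passed. Against untreated liver 6 of these 9 lay above 0 with a median of 0.55, and Cd72 passed, an inhibitory receptor of B cells, at 1.34 ± 0.26 (adjusted p = 0.0368 in limma). Against AAV-GFP, Cd72 differed by 1.16 (adjusted p = 0.105 in limma). Its call against untreated liver was lost without AAV-hGRβ replicate 1 or 3 or untreated replicate 3 or 4 (adjusted p = 0.0603 to 0.152 in limma). Blk, Pax5 and Ebf1, a kinase and the transcription factors that set B cell identity, were well above background on at most 1 array and were not tested. The summed linear level of the 12 genes ran from 2.34 to 2.70 in untreated liver, from 2.04 to 2.68 with AAV-GFP and from 3.06 to 5.11 with AAV-hGRβ. This sum includes Cr2, Fcrla and Tnfrsf13c, for which the filter favoured a higher AAV-hGRβ level. In sums of this kind the brightest probes weigh most.

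Genes that carry the B cell receptor's signal were mostly above 0 against AAV-GFP, 13 of 15 with a median of 0.74, and none passed. At an unadjusted p under 0.05, 9 of 15 were higher, beside 8.41% of all tested genes. Cd72, which is on this list too, was the only one to pass against untreated liver. The summed level of the 15 genes was lowest with AAV-hGRβ, unlike their median difference. It ran from 110 to 114 in untreated liver, from 111 to 118 with AAV-GFP and from 102 to 108 with AAV-hGRβ. Several of the genes on this list, such as Syk and Plcg2, are active in myeloid cells as well. Of 7 plasma cell genes 5 were tested, 2 of them lay above 0 against AAV-GFP with a median of -0.20, and none passed in either AAV-hGRβ comparison. The 2 above 0 were Mzb1, a chaperone of antibody-secreting cells, at 0.70 (adjusted p = 0.319 in limma) and Jchain, the joining chain of secreted antibodies, at 0.52 (adjusted p = 0.822 in limma). Below 0 lay Sdc1 at -0.50 (adjusted p = 0.332 in limma), Derl3 at -0.38 (adjusted p = 0.669 in limma) and Xbp1 at -0.20 (adjusted p = 0.921 in limma), of which hepatocytes also express Sdc1 and Xbp1. The summed level of the 5 plasma cell genes ran from 22.4 to 26.2 in untreated liver, from 15.6 to 30.2 with AAV-GFP and from 15.3 to 17.8 with AAV-hGRβ.

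Dendritic cell subsets gave few calls. Of 10 genes of type 1 conventional dendritic cells, 1, Clec9a, entered through AAV-hGRβ alone, 6 of the other 9 lay above 0 against AAV-GFP with a median of 0.46, and none of the 10 passed. Against untreated liver Ifi205 passed at 1.94 (adjusted p = 0.0152 in limma), an interferon-inducible gene with near-identical neighbours in its family, so which copy its probe measured is uncertain. Clec9a and Xcr1, which define this subset, gave 1.03 (adjusted p = 0.625 in limma) and 0.26 (adjusted p = 0.817 in limma) against AAV-GFP, where Clec9a was well above background on 1 of 3 arrays. Of 8 genes of type 2 conventional dendritic cells, 5 were tested, 4 lay above 0 against AAV-GFP with a median of 0.75, and none passed. Against untreated liver Cd7 passed at 2.22 (adjusted p = 0.0357 in limma), a gene that T cells and natural killer cells also express. Without AAV-hGRβ replicate 3, untreated replicate 3 or untreated replicate 4 neither Ifi205 (adjusted p = 0.0748 to 0.0865 in limma) nor Cd7 (adjusted p = 0.137 to 0.152 in limma) passed, and Cd7 did not without AAV-hGRβ replicate 1 (adjusted p = 0.0690 in limma).

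Of 9 genes of plasmacytoid dendritic cells, 8 were tested and 2 passed in both AAV-hGRβ comparisons. Siglech, Ccr9 and Pacsin1 entered through AAV-hGRβ alone, and of the other 5 only the 2 that passed lay above 0 against AAV-GFP, with a median of -0.03 over the 5. Cox6a2, a cytochrome oxidase subunit, gave -1.12 ± 1.50 (adjusted p = 0.857 in limma), the transcription factor Tcf4 gave -0.11 (adjusted p = 0.881 in limma) and Klk1 -0.03 (adjusted p = 0.980 in limma). Against untreated liver Tcf4 gave -0.43 (adjusted p = 0.163 in limma). These are values of its brightest probe, and its 3 probes disagreed in sign. They ran from -0.31 to 0.54 against AAV-GFP and from -0.74 to 0.84 against untreated liver. Ly6d, a surface protein also found on early B cells and in epithelia, rose by 4.17 ± 0.52 against AAV-GFP (adjusted p = 0.0100 in limma) and by 4.21 against untreated liver (adjusted p = 0.00628 in limma). Bst2, an interferon-inducible protein that many cell types make, rose by 1.24 ± 0.21 (adjusted p = 0.0376 in limma) and 1.50 (adjusted p = 0.0112 in limma). With 1 array left out Ly6d missed the threshold only against AAV-GFP without AAV-GFP replicate 1 (adjusted p = 0.0601 in limma). Bst2 missed it against AAV-GFP without any 1 array of these groups (adjusted p = 0.0626 to 0.178 in limma), and against untreated liver without AAV-hGRβ replicate 3, untreated replicate 3 or untreated replicate 4 (adjusted p = 0.0549 to 0.0650 in limma). Siglech, the defining receptor of these cells, was well above background on the 3 AAV-hGRβ arrays and on no other array. It was at least 1.25-fold higher than with AAV-GFP (adjusted p = 0.507 in limma), a bound set against each AAV-GFP array's lowest signal well above background or the probe's own signal, whichever was higher.

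Of 12 genes of dendritic cell maturation 8 were tested, and Cd80 and Ccr7 entered through AAV-hGRβ alone. The other 6 all lay above 0 against AAV-GFP with a median of 0.92. Cd274, the ligand PD-L1, passed in both comparisons, at 1.19 ± 0.21 against AAV-GFP (adjusted p = 0.0382 in limma) and 0.95 against untreated liver (adjusted p = 0.0464 in limma). Against untreated liver the co-stimulatory genes Cd86 and Cd40 passed too, at 1.98 (adjusted p = 0.0462 in limma) and 1.90 (adjusted p = 0.0476 in limma). Their differences from AAV-GFP were 1.09 (adjusted p = 0.353 in limma) and 1.33 (adjusted p = 0.244 in limma). Against untreated liver none of the 3 passed without AAV-hGRβ replicate 1 or 3 or untreated replicate 3 or 4, and Cd86 and Cd40 not without AAV-hGRβ replicate 2 (adjusted p = 0.0621 to 0.192 in limma). Against AAV-GFP, Cd274 passed with AAV-hGRβ replicate 2 left out and with no other array of these groups left out (adjusted p = 0.0616 to 0.161 in limma). Cd86 and Cd40 are also made by macrophages and B cells, and Cd274 by many cell types under interferon. The summed level of the 8 genes was 2.43 to 3.83 in untreated liver, 2.02 to 2.90 with AAV-GFP and 3.99 to 4.24 with AAV-hGRβ. This sum includes Cd80 and Ccr7, for which the filter favoured a higher AAV-hGRβ level.

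Among ligands and survival factors, 4 of 8 tested genes lay above 0 against AAV-GFP with a median of 0.10, and none passed. Il4 and Kitl, the nearest to the threshold, gave 0.79 (adjusted p = 0.363 in limma) and -0.48 (adjusted p = 0.400 in limma). The ligand of the Flt3 receptor, Flt3l, picked out after its values were seen, differed by 0.00 ± 0.17 from AAV-GFP and by 0.21 from untreated liver. Among receptors of dendritic and B cells 9 were tested, and none passed in either AAV-hGRβ comparison. Tnfrsf13b, Tnfrsf13c, Cxcr5 and Ccr7 entered through AAV-hGRβ alone, and of the other 5, 4 lay above 0 against AAV-GFP with a median of 0.06. The summed level of all 9 ran from 11 to 11.3 in untreated liver, from 8.58 to 10.9 with AAV-GFP and from 10.4 to 13.2 with AAV-hGRβ. The tested probe of Tnfrsf13b, a receptor for B cell survival factors, was well above background on no AAV-GFP array, and its AAV-hGRβ level was at least 1.68-fold higher (adjusted p = 0.128 in limma), and Csf2rb, the shared chain of the GM-CSF receptor, gave 0.55 (adjusted p = 0.231 in limma).

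**Figure D4:**
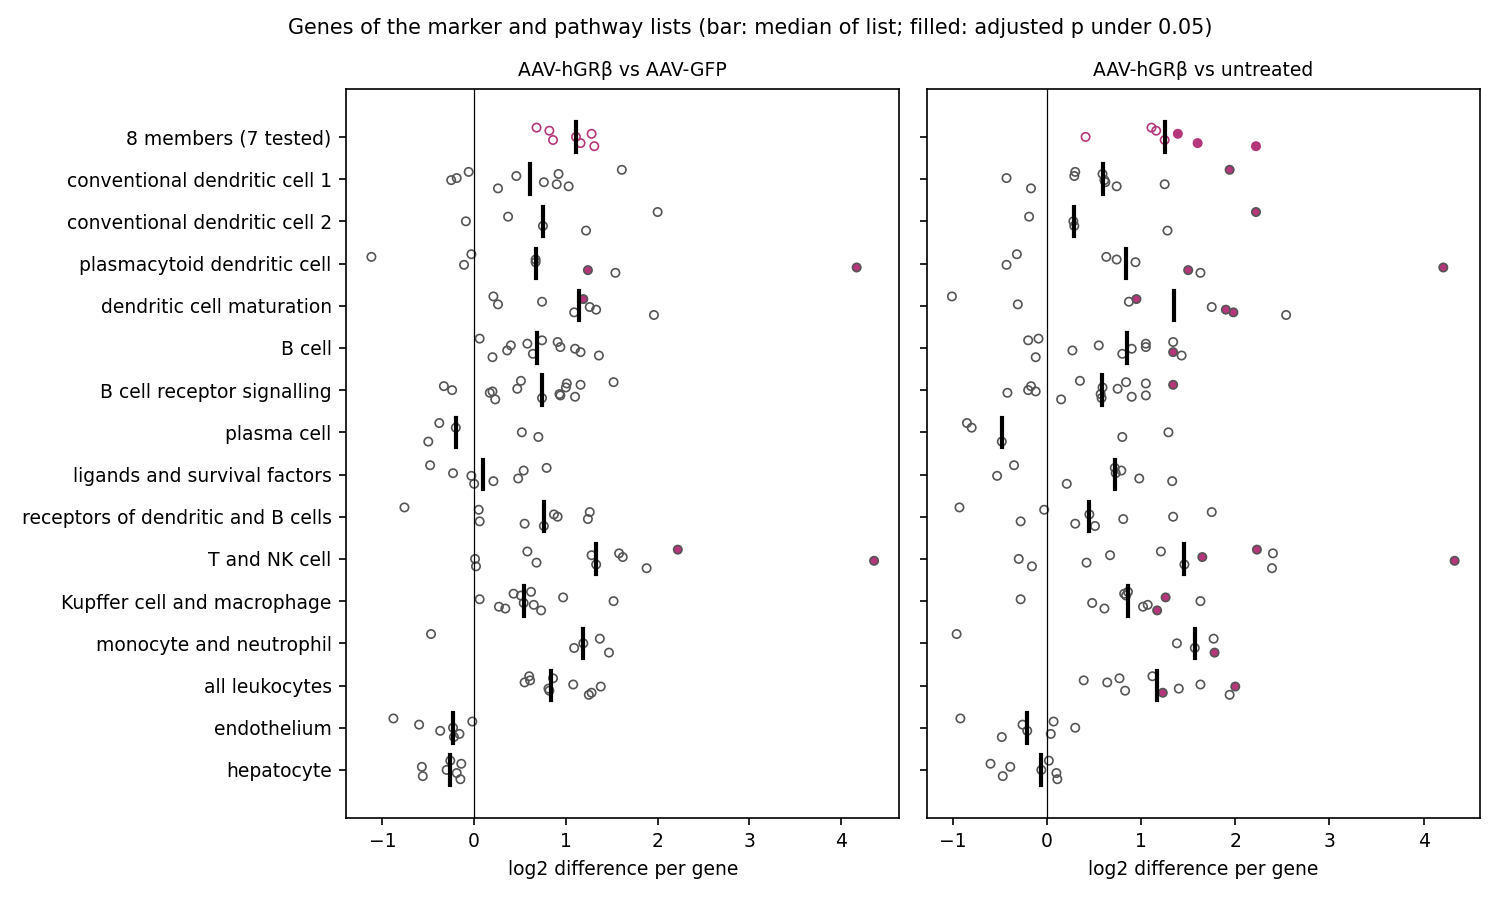
Log2 difference of each tested gene (x axis) by list, for AAV-hGRβ against AAV-GFP and against untreated liver, with the list's median as a bar and genes past an adjusted p of 0.05 filled; medians here include genes that entered the test through AAV-hGRβ alone. The medians of the markers, of their lists for B cells and dendritic cells, and of all other leukocyte lists lie above 0, whereas those for plasma cells, endothelium and hepatocytes lie below 0. Without the genes that entered through AAV-hGRβ alone, the plasmacytoid dendritic cell median against AAV-GFP is -0.03. The median of the receptor list against untreated liver is then -0.03 too.

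Markers of other leukocytes were read in the same way. All 10 genes common to leukocytes lay above 0 against AAV-GFP, with a median of 0.84. At an unadjusted p under 0.05, 8 of 10 were higher, beside 8.41% of all tested genes. None passed there, while Cd52 at 2.00 (adjusted p = 0.0327 in limma) and Coro1a at 1.23 (adjusted p = 0.0471 in limma) passed against untreated liver. Their summed level ran from 9.71 to 14.5 in untreated liver, from 10.9 to 21.8 with AAV-GFP and from 27 to 50.6 with AAV-hGRβ. Of 11 tested T and natural killer cell genes, Cd8a and Ncr1 entered through AAV-hGRβ alone, and the other 9 all lay above 0 against AAV-GFP with a median of 1.28. The summed level of the 11 was 2.63 to 2.83, 2.57 to 2.67 and 4.39 to 8.42 in the same order of groups. This sum includes Cd8a and Ncr1, for which the filter favoured a higher AAV-hGRβ level. Cd8a, of cytotoxic T cells, had no probe of its 3 well above background with AAV-GFP. Its AAV-hGRβ level was at least 12.6-fold higher at the brightest of them (adjusted p = 0.00848 in limma). That call held with any 1 array of these groups left out. The filter had admitted Cd8a through AAV-hGRβ alone, which favoured this direction, so the call is not independent of the filter. The bounds at the other Cd8a probes were 2.76-fold and 5.43-fold. Nkg7, of cytotoxic granules, rose by 2.22 (adjusted p = 0.0404 in limma), a call lost without any 1 array of these groups but AAV-hGRβ replicate 2 (adjusted p = 0.0512 to 0.163 in limma). Lck, a kinase of T cell receptor signalling, gave 1.62 against AAV-GFP (adjusted p = 0.0567 in limma) and passed against untreated liver at 1.65 (adjusted p = 0.0327 in limma). Against untreated liver Lck, Cd52 and Coro1a did not pass without AAV-hGRβ replicate 1 or 3 or untreated replicate 3 or 4 (adjusted p = 0.0598 to 0.193 in limma).

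Of 11 Kupffer cell and macrophage genes, all lay above 0 against AAV-GFP with a median of 0.54 and none passed, while Clec4f at 1.17 (adjusted p = 0.0357 in limma) and Cd5l at 1.26 (adjusted p = 0.0428 in limma) passed against untreated liver. Marco had no value on AAV-GFP replicate 3, where its spot was an outlier, so the summed level covers 10 genes: 79.3 to 106 in untreated liver, 86.4 to 148 with AAV-GFP and 189 to 254 with AAV-hGRβ. Of 5 tested monocyte and neutrophil genes, 4 lay above 0 against AAV-GFP with a median of 1.19, and Ccr2, of inflammatory monocytes, passed against untreated liver at 1.78 (adjusted p = 0.0327 in limma). Without AAV-hGRβ replicate 1 or 3 or untreated replicate 3 or 4 none of Clec4f, Cd5l and Ccr2 passed, and Clec4f and Cd5l did not without AAV-hGRβ replicate 2 (adjusted p = 0.0603 to 0.180 in limma). Beside these, the summed level of the 7 tested dendritic and B cell markers ran from 1.26 to 2.76 in untreated liver, from 1.55 to 3.45 with AAV-GFP and from 4.19 to 5.81 with AAV-hGRβ. Endothelial genes had a median of -0.23 and hepatocyte genes of -0.26 against AAV-GFP, with none past the test. The part of other cell types in the differences of the 8 markers was not tested.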

How the data were processed

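Each deposited array file held spot intensity on a linear scale, background-subtracted within the array and not scaled between arrays, per the file headers. Per the submitters' processing notes, spots were read with Agilent Feature Extraction 9.5. The deposited series table held the same intensity values. RNA (500 ng) was Cy3-labelled, per the labels' protocols.

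Control and outlier spots were left out and spots of a probe averaged. Values were log2 intensity minus the array's 75th percentile. A probe entered the fit (24273 did) if every array of some group marked it well above background, and each gene was represented by its brightest probe on average. Of the probes, 8161 kept the file's name, and RefSeq named 22951 through their accession, 6659 through a current symbol, 3109 through an older one and 294 through a gene identifier. The 3 groups entered a single two-sided fit of all 9 arrays (limma 3.58.1, lmFit and eBayes, R 4.3.3, with 6 residual degrees of freedom), with Benjamini-Hochberg adjustment over all 16792 genes and a threshold of 0.05. The fit was tested on simulated data. The number of arrays limits the precision.

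All 8 genes are named, with every gene of the dendritic, B and plasma cell lists past the threshold, or else the 2 with the smallest p, at most 3 genes past the threshold from each list of other cell types, and the 2 nearest profiles. Defining markers beyond this rule (Blk, Pax5, Ebf1, Clec9a, Xcr1, Siglech), genes that entered through AAV-hGRβ alone, and Alb, Syk, Plcg2, Jchain, Xbp1, Derl3, Cox6a2, Tcf4 and Klk1 were picked after their values were seen. Genes and lists were chosen with earlier results of these data known. Alternatives covered background correction, scaling, filters, probes, scan day, slide, replicate block and left-out arrays.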

Additional observations from a re-analysis of the deposited data

How the results depend on the processing

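For AAV-hGRβ against AAV-GFP and for AAV-GFP against untreated liver, 0 of the 7 tested markers passed in limma under every alternative run. For AAV-hGRβ against untreated liver, where 3 passed, 0 passed with normexp background correction, with no filter on dim probes, with slide as a random block (correlation 0.465) and, chosen after seeing the data, without AAV-hGRβ replicate 1 and untreated replicate 3 together; 1 passed with median scaling, and 4 with each probe tested on its own or with the RefSeq probe for Itgax. Leaving out 1 array gave 0 to 5 markers past the test.

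Whether replicate numbers pair the samples is not known. Deviations of same-numbered arrays correlated at 0.012, 0.242 and 0.007 between AAV-hGRβ and AAV-GFP, and at -0.323 to 0.078 in the other comparisons. Several of these pairs were scanned on different days, so the values cannot settle it. With the replicate block, 0 markers passed in each comparison, and over all genes 2 passed for AAV-hGRβ against AAV-GFP and 1 against untreated liver.

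Over all genes, 154 passed for AAV-hGRβ against AAV-GFP (141 higher, 13 lower). The count was 95 with median scaling (77 higher, 18 lower), 30 without the filter, 14 with normexp, 77 with only these groups fitted, 260 with scan day as a block, 75 with slide as a random block, 0 with slide as a fixed block, 28 without AAV-hGRβ replicate 1 and untreated replicate 3, and 41 to 153 with 1 array left out. For AAV-hGRβ against untreated liver, 568 passed (435 higher, 133 lower). The count was 587 with median scaling (329 higher, 258 lower), 407 with quantile normalization (301 higher, 106 lower), 85 without the filter, 45 with normexp, 900 with normexp and bright local backgrounds replaced (536 higher, 364 lower), 324 with only these groups fitted, 1256 with scan day as a block, 58 with slide as a random block, 12 without AAV-hGRβ replicate 1 and untreated replicate 3, and 94 to 2150 with 1 array left out, the highest of them without untreated replicate 2. For AAV-GFP against untreated liver, where 0 passed and 1659 had an unadjusted p under 0.05, the count was 4 with median scaling, 1 with quantile normalization, 1 with scan day as a block and 0 to 1 with 1 array left out.

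Median scaling moved the median of all genes by -0.35 for AAV-hGRβ against AAV-GFP and by -0.34 against untreated liver, and moved the markers with it: all 7 stayed above 0, with medians of 0.76 and 0.91 beside -0.32 and -0.24 over all genes. Quantile normalization moved the all-gene median by -0.13 against untreated liver.

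Directions turned under normexp for 4 markers against AAV-GFP (Cd22 -0.27, Itgax -0.47, Flt3 -0.65, Ms4a1 -0.090) and for Cd22 (-0.032), Itgax (-0.18) and Flt3 (-0.56) against untreated liver, and Flt3 gave 0.088 for AAV-GFP against untreated liver. Normexp also turned Ccr2 (-0.035), Cd40 (-0.074), Il4 (-0.64), Mzb1 (-0.39), Sdc1 (0.14) and Tnfrsf13b (-0.84) against AAV-GFP. With it, 3 of 7 markers lay above 0 against AAV-GFP. With bright local backgrounds replaced all 7 did, at a median of 0.62 beside 1.11 as reported. Between AAV-GFP and untreated liver, Cd22 (0.11 as reported, and -0.067 to 0.29 with 1 array left out) turned with the replicate block (-0.053), without AAV-GFP replicate 2 (-0.0070) and without untreated replicate 4 (-0.067), Itgax with the replicate block (-0.035) and with its RefSeq probe (-0.11), Flt3 on the second scan day alone (0.43) and Ms4a1 on that day alone (-0.047). Against untreated liver, Flt3 turned with quantile normalization (-0.049) and Ms4a1 on the second scan day alone (-0.017). The cause of these turns was not tested.

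Signal over background limits Flt3, Cd79a and the second probes of Cd22 and Ms4a1 most. With 3 arrays a group and calls near the threshold, 1 array decided whether Cd83, Clec10a or Cd22 passed.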
